A study of Mus musculus with 4 samples.

Results

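These regions are stretches of RNA that were assembled as transcripts of 1 exon and lie outside every spliced transcript of the 4 libraries. A member transcript had 1 exon, at least 500 bases and at least 2 RPKM (a level per length of transcript, scaled to library size), lay on chromosomes 1 to 19 or X, and overlapped no span of a multi-exon transcript in any library. Of 293624 assembled transcripts, 206961 had 1 exon and 5369 were members, 1494 in growth and 1373, 1278 and 1224 at 60 h, 120 h and 168 h. Overlapping members merged into 1987 regions of 500 to 10426 bases, with a median of 1028. Members were thus selected on RPKM and length, so neither is a finding. Where a region reached 2 RPKM in only some libraries, its higher level there is tied to that selection. Within 0.5 RPKM of the limit, 248 to 340 otherwise eligible transcripts per library lay below it and 165 to 205 above it, and within 50 bases of the length limit 109 to 119 lay below it and 86 to 120 above it.

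The label of intergenic transcripts was checked against GENCODE M21, and most regions went against it. Of the 1842 regions that could be placed between identified splice sites, 1622 lay in annotated exons, 87 in annotated introns and 133 between annotated genes. They are therefore called single-exon regions here.

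A spliced messenger RNA ends in a 3' untranslated region that is often 1 long exon, and an assembler can leave that stretch unconnected to the spliced part. Some genes have no intron at all, among them replication-dependent and other histone genes and several immediate early and transcription factor genes. Processed pseudogenes are copies of messenger RNAs written back into the genome without introns, so their letters can be nearly those of a spliced gene elsewhere. Long nuclear RNAs and the primary transcripts of microRNAs can also appear as unspliced stretches.

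The letters of 2 kinds of member are shown because the results below turn on what these stretches are. First come microRNAs whose hairpins lie inside single-exon regions, from RefSeq (GRCm38.p6). In all, 7 regions held 16 mature microRNAs with 14 distinct seeds. For the 4 of these regions outside exons of multi-exon coding genes, mature forms are printed 5' to 3' with the seed, bases 2 to 8, in capitals. Only let-7b and let-7c, in the same region on chromosome 15, share a seed among those printed.
mmu-let-7b-5p: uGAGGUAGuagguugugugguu
mmu-let-7c-5p: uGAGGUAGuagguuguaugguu
mmu-miR-24-3p: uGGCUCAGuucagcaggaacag
mmu-miR-3074-5p: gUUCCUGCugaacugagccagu
mmu-miR-351-5p: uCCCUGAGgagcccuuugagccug
mmu-miR-503-5p: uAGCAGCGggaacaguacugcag
mmu-miR-296-3p: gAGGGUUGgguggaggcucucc

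Next come 3 pseudogene regions, each above the reading frame of the spliced gene with which it shares the most words of 50 bases (GENCODE M21 transcripts). Each line is the aligned window of 90 bases with the most differences, 5' to 3', and capitals mark the bases that differ. Mylf-ps differed from Myl1 at 3 of 421 aligned bases, Gm48455 from Rrm2 at 20 of 420, and Gm9430 from Cdc6 at 22 of 777.
Mylf-ps: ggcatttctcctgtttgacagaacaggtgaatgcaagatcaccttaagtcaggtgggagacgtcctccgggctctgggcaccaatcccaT
Myl1: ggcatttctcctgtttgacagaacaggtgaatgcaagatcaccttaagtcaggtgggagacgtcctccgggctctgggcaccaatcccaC
Gm48455: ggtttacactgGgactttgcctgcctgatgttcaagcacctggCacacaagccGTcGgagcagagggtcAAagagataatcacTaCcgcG
Rrm2: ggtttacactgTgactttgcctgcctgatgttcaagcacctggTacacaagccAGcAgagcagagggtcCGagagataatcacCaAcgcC
Gm9430: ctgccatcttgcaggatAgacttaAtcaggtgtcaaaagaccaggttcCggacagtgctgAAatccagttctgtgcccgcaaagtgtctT
Cdc6: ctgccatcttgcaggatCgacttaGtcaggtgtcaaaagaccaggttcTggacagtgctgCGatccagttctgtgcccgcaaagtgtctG

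C2C12 is a mouse skeletal myoblast cell line, labelled with the strain C57BL/6, whose cells stop dividing and form multinucleate myotubes once serum is withdrawn. RNA was taken 24 h before the switch (-24 h, myoblasts in exponential growth in high serum, called growth here) and at 60 h, 120 h and 168 h in low serum. Each time point has 1 library of polyadenylated RNA, broken by heat, copied from random hexamers and sequenced as paired ends with no marking of strand in the protocol. No replicate exists, so no test across samples was possible and each difference is between 2 libraries.

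From the deposited limits, the growth library held 28513976 fragments, the 60 h library 48228893, the 120 h library 24488680 and the 168 h library 43845268, so depth was lowest at 120 h. The line's markers were present: desmin (Des) was at 449.8 RPKM in growth and 2286 at 168 h, Myog at 16.9 and 326, and Myl1 was not assembled in growth and was at 485 at 168 h. Acta1 was at 18.4 and 7219, and Ckm and Tnnt1, not assembled in growth, were at 1215 and 429 at 168 h. Not all rose: Myod1 was at 193 in growth and 86.1 at 168 h, and Myf5 at 13.6 and 13.4. Of 9 markers of macrophages, endothelium and fat, Ptprc, Pecam1, Adipoq and Plin1 were assembled in no library, and the highest value was 6.08 RPKM, for Vwf at 120 h.

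A region's value is the RPKM of all single-exon transcripts in it, weighted by the share of the region each covers. The error after ± is the distance to the deposited limit, 2 square roots of the fragment count, and covers counting error only. A region was called higher or lower where the ratio on the log2(RPKM + 1) scale was at least 2-fold, both libraries had an assembled transcript there, the higher value was at least 1 RPKM and the intervals did not overlap. Where a library had no transcript in a region, the region is given as not assembled and no fold is given.

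Most regions were pieces of known genes. Exons of multi-exon coding genes held 914 regions (46.0%), of which 774 were in the 3' untranslated region, 77 in coding sequence and 33 in the 5' untranslated region. Pseudogenes held 513 (25.8%), single-exon coding genes 145 (7.3%) and noncoding genes 50 (2.5%). The remaining 145 could not be placed. By distance, 951 regions lay within 5 kb of the 3' end of an assembled multi-exon transcript, 163 within 5 kb of a 5' end, and 873 farther away. Of the 951 on the 3' side, 511 were within 200 bases of the transcript end and 659 were annotated to the 3' untranslated region of the very gene beside them. Among the 873 far regions, pseudogenes made up 54.3%.

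**Figure D1:**
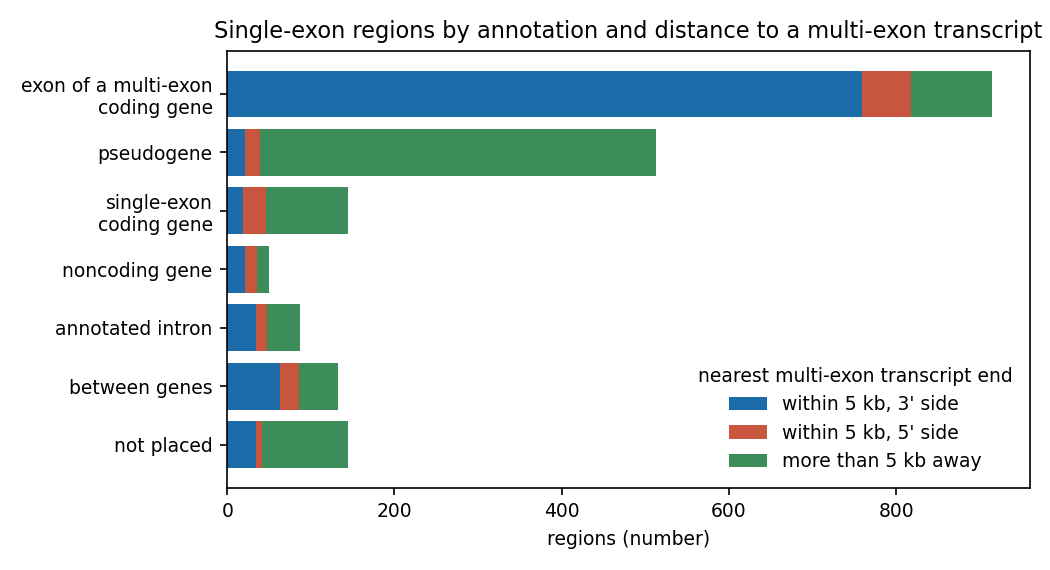
Number of single-exon regions (horizontal axis) in each annotation class, with bar colours for the side and distance of the nearest end of an assembled multi-exon transcript. Exons of multi-exon coding genes sit mostly on the 3' side (759 of 914) and pseudogenes mostly more than 5 kb away (474 of 513).

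Levels differed by class. The median of each region's highest RPKM was 17.4 for pseudogenes and 12.1 for single-exon coding genes, against 3.68 for exons of multi-exon coding genes, 3.51 for noncoding genes, 3.77 for introns and 3.05 between genes, and 5.29 over all regions. Pseudogene regions were also the class whose letters recur elsewhere: 444 of 513 had at least 10% of their words of 50 bases in transcripts of other genes, with a median of 39.3%, while this was so for 108 of 914 regions in exons of multi-exon coding genes and 49 of 145 in single-exon coding genes. The sources used here do not give how reads that fit several places were assigned, and the part of shared words in these levels was not tested.

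Between growth and 60 h, 117 of 1794 regions assembled in both libraries were called higher (6.52%) and 222 lower (12.4%). The same rule called 7.23% of multi-exon loci higher and 12.9% lower (7.9% and 14.1% of loci of at least 2 RPKM in 1 library), so the regions stood near the background. Rescaling the libraries by the median ratio of multi-exon loci, which moved the median ratio of the loci by 0.20 on the log2 scale, changed the split to 155 higher and 153 lower. These were 8.64% and 8.53% of the regions, beside 9.37% and 9.17% of loci rescaled in the same way. From 60 h to 120 h, 22 of 1822 regions were called higher (1.21%) and 75 lower (4.12%), whereas 5.79% of loci were higher and 1.84% lower (6.44% and 2.05% of loci of at least 2 RPKM). From 120 h to 168 h, 28 of 1842 were higher (1.52%) and 36 lower (1.95%), beside 1.88% and 5.3% of loci (2.07% and 5.94%). At 168 h against growth, 141 of 1807 were higher (7.8%) and 490 lower (27.1%), beside 10.9% and 18.5% of loci (11.8% and 19.9%). After the same rescaling, which moved the median of the loci by 0.23, the counts were 175 and 388, or 9.68% and 21.5% of regions. Of loci rescaled in this way, 13.9% were higher and 13.9% lower. The comparisons of 60 h and of 168 h with growth share the growth library. In bulk RNA, fewer cells that carry a transcript and less of it per cell cannot be told apart.

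The median log2 ratio of the regions was -0.21 at 60 h against growth, beside -0.22 for loci, and -0.44 at 168 h against growth, beside -0.20. The step from 60 h to 120 h gave -0.24 for regions and 0.07 for loci. The loci stayed near 0 there: over the 10565 loci used for rescaling, the median was 0.05 and became -0.01 after it. The median of the regions was lowest on the 3' side of genes, at -0.35, against -0.13 both for regions on the 5' side and for far regions.

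Regions beside the 3' end of a spliced transcript had ratios close to its own in the comparisons with growth and less so between the later times. Over 776 such pairs the log2 ratios of region and neighbour at 60 h against growth had a Pearson r of 0.70, and over 546 far pairs r was 0.01. At 168 h against growth r was 0.71 over 759 pairs and 0.11 over 544. Between 60 h and 120 h r was 0.31 over 791 pairs on the 3' side and 0.04 over 561 far pairs, and between 120 h and 168 h it was 0.28 over 792 and 0.03 over 560. Region and neighbour come from the same libraries and, on the 3' side, mostly from the same gene. Among 565 regions in the 3' untranslated region of the neighbouring gene, 49 were called higher at 60 h. Of these, 29 had a neighbour called higher, 20 a neighbour not called and 0 a neighbour called lower. Over all 565 pairs, 6.2% of neighbours were called higher and 11.2% lower. Of the 54 regions called lower at 60 h, 30 neighbours were lower, 23 not called and 1 higher. From 60 h to 120 h, 29 of 572 such regions were called lower, of which 3 had a neighbour called lower and 26 one not called. Over all 572 pairs, 2.8% of neighbours were called lower. The median log2 ratio was -0.38 for the regions and -0.03 for the neighbours. At 168 h against growth, 82 of the 141 such regions called lower had a lower neighbour and 0 a higher one. Over all 561 pairs there, 20.9% of neighbours were called lower. Among far regions, 50 of 166 called lower had a nearest locus called lower and 16 one called higher, while 22.1% of all their nearest loci were called lower.

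**Figure D2:**
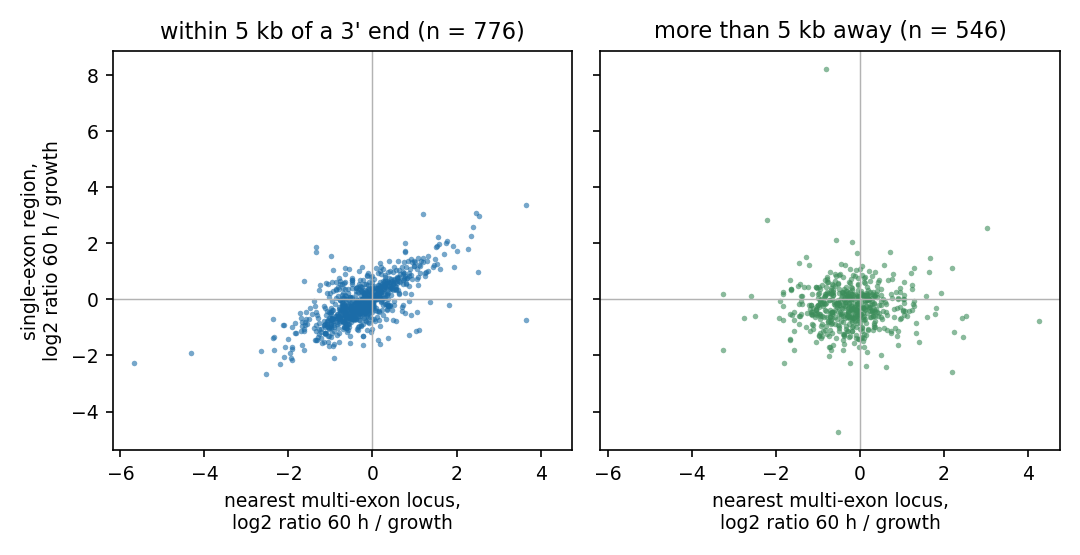
Log2 ratio (RPKM + 1) of 60 h over growth for each single-exon region (vertical) and its nearest multi-exon locus (horizontal), for 776 regions within 5 kb of a 3' end (left) and 546 more than 5 kb away (right). The left cloud lies along the diagonal (r = 0.70) and the right one has no slope (r = 0.01).

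At the median, a 3' stretch had a lower level than the spliced part of its gene. In 516 regions with values in all libraries, the median level was 42.0% of the neighbouring locus in growth, 48.7% at 60 h, 29.0% at 120 h and 35.0% at 168 h. The median assembled share of these regions was 98.4%, 98.9%, 86.9% and 92.3% in the same order, so both values were highest at 60 h and lowest at 120 h. The part of the assembled share in the level was not tested.

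The 3' stretches with the largest higher calls at 60 h belonged to genes of unlike roles. The 3' untranslated region of Alpk3, a kinase of striated muscle (chr7:88249810-88250500), was at 0.313 RPKM in growth and 18.9, 24.3 and 22.3 at 60 h, 120 h and 168 h, and the Alpk3 locus was not assembled in growth and was at 38.6, 52.0 and 24.9. The growth value rests on 6.16 fragments. The stretch was low in growth and high at every later time, with no overlap of intervals between growth and the rest.

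Mef2c encodes a transcription factor that acts with the myogenic regulators. Its 3' stretch of 3391 bases (chr13:83803296-83806686) was at 0.868 ± 0.187 RPKM in growth and 13.7 ± 0.578, 12.0 ± 0.759 and 16.2 ± 0.659 afterwards, a log2 ratio of 2.97 at 60 h, and the spliced locus was at 3.41, 24.5, 36.2 and 40.6 RPKM. For Foxo6, a forkhead factor, the stretch (0.701, 17.4, 20.5 and 22.1 RPKM in time order) was higher than the spliced locus, which was not assembled in growth and was at 11, 9.84 and 14.9 later. The stretch of Slc40a1, the iron exporter ferroportin, was at 0.281, 9.74, 5.93 and 5.58 RPKM, highest at 60 h. Unc13d, which primes vesicles for release, had 0.273, 6.64, 5.32 and 4.11 RPKM.

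Lpl, the lipase that releases fatty acids from circulating triglyceride, followed another course. Its 3' stretch (chr8:71429492-71430833) was at 0.444, 1.65, 3.59 and 16.8 ± 1.07 RPKM in time order, and the step from 120 h to 168 h, a log2 ratio of 1.95, was among the 5 largest higher calls there. The Lpl locus was at 2.13, 2.83, 17.5 and 42.5 RPKM.

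Among stretches called lower, Chst2, a sulfotransferase of cell surface glycans, had a coding stretch (chr9:95304183-95306699) at 92.4 ± 2.27 RPKM in growth and 13.9, 8.84 and 8.33 afterwards, with its locus at 40.9, 6.27, 4.23 and 4.12. A coding stretch of Eme1 on its 5' side, a subunit of a nuclease that resolves joined chromosomes, was at 10.7 RPKM in growth and at 0.471, 0.412 and 0.0613 later, where under 30% of the region was assembled. The stretch of Marcks, a membrane substrate of protein kinase C, was at 16 and 11.9 RPKM in growth and at 60 h and at 3.22 and 3.96 at 120 h and 168 h. The longest region, 10426 bases in the 3' untranslated region of Lpp (chr16:24982211-24992636), a focal adhesion protein, was at 8.31 ± 0.334, 3.67 ± 0.171, 2.25 ± 0.188 and 2.05 ± 0.134 RPKM and was called lower at 168 h against growth, while the spliced Lpp locus was at 6.83, 3.88, 3.95 and 6.04.

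Some coding genes have a single exon, and a region can hold most of such a gene or, as for Ier5l and Hnrnpa0 below, a piece of it. Of the 133 of their 145 regions assembled in both libraries, 14 were called higher at 168 h against growth (10.5%, beside 7.8% of all regions) and 37 lower (27.8%, beside 27.1%), near the share of all regions. At 60 h, 6 of 129 were higher and 23 lower (4.65% and 17.8%, beside 6.52% and 12.4% of all regions). Mafa, a large Maf transcription factor (chr15:75575933-75578738), was at 0.875 ± 0.209 RPKM in growth and 10.5 ± 0.557, 9.32 ± 0.735 and 17.8 ± 0.760 at 60 h, 120 h and 168 h. Its log2 ratio at 60 h was 2.62. Fem1a, an adaptor of a ubiquitin ligase (chr17:56396228-56403015), was at 12.0, 22.4, 28.9 and 36.3 RPKM, each interval apart from the next. Both genes were lowest in growth and highest at 168 h.

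Purb and Hnrnpa0, which bind single-stranded nucleic acid and RNA, had regions called lower between 60 h and 120 h. Purb (chr11:6367600-6375785) was at 29.6 ± 0.712, 20.1 ± 0.451, 6.87 ± 0.37 and 5.92 ± 0.257 RPKM, and the longer of 2 Hnrnpa0 regions at 68.7 ± 2.35, 40.9 ± 1.39, 14.9 ± 1.18 and 12.4 ± 0.803. The shorter Hnrnpa0 region was at 168, 90.6, 57.2 and 77.9 RPKM. Hmga1b, an intronless copy of the chromatin protein gene Hmga1, was at 185, 28.2, 36.9 and 27.1 RPKM, and Hmga1 itself at 167, 93.0, 42.2 and 44.8. Hmga1b shares 90.1% of its words with Hmga1, so reads of the pair cannot be told apart over most of its length.

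The following genes outside the naming rule were chosen after their values were seen. Fibin was at 0.235, 4.40, 4.88 and 7.79 RPKM in time order. Hspb3, a small heat shock protein of muscle, was not assembled in growth and was at 8.43 ± 0.917, 11.2 ± 1.48 and 9.19 ± 1 afterwards, where the interval at 168 h overlapped those at 60 h and 120 h. Thbd, the thrombin receptor thrombomodulin, was at 3.16, 2.60 and 3.81 RPKM up to 120 h and at 9.45 ± 0.479 at 168 h. On the falling side, Haspin, a kinase that marks histone H3 in mitosis, was at 8.16 ± 0.651, 2.42 ± 0.272, 1.33 ± 0.283 and 0.304 ± 0.101 RPKM. Kcnf1, a potassium channel subunit, was at 8.12 in growth and 1.59, 1.32 and 1.34 later, and Nanos1, an RNA-binding protein, at 2.02, 0.224, 0.116 and 0.0958. Epop, a partner of the Polycomb complex PRC2, was at 9.19 ± 0.767, 1.57 ± 0.236, 1.06 ± 0.281 and 0.936 ± 0.197, and the imprinted gene Peg12 at 6.54 ± 0.641, 0.941 ± 0.185, 0.475 ± 0.186 and 0.357 ± 0.121. All 5 were highest in growth, apart from every later interval. Gm13889, a gene of no named function, was at 0.455 ± 0.227, 2.42 ± 0.403, 8.07 ± 1.03 and 14.9 ± 1.05 RPKM, each interval above the one before.

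**Figure D3:**
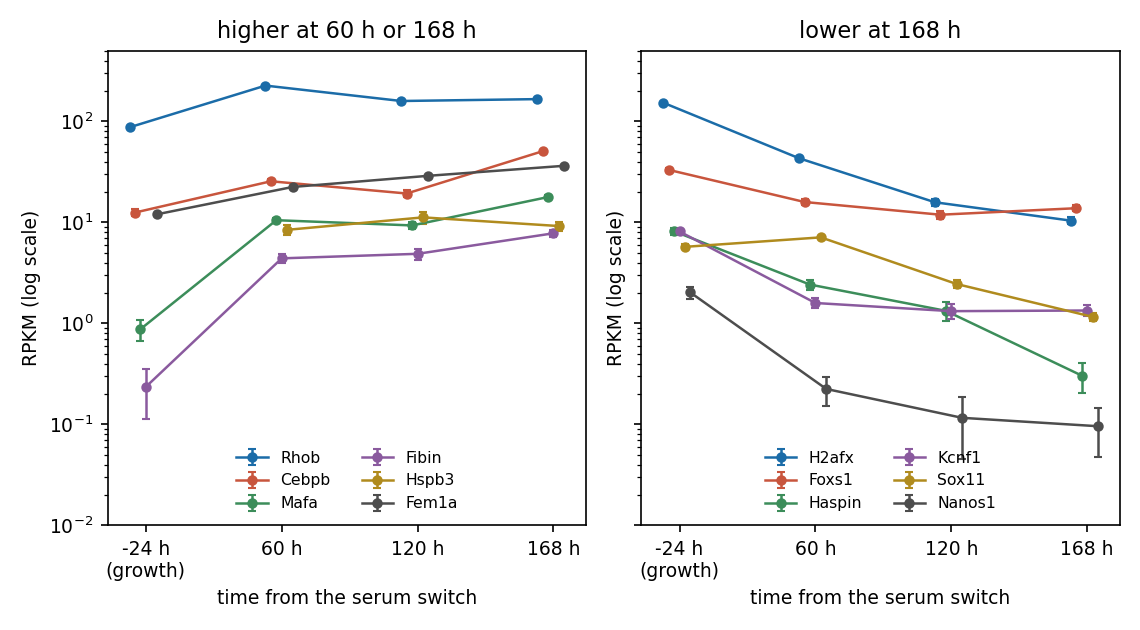
RPKM (log axis) of 12 single-exon coding genes at the 4 time points, 1 library each, with bars to the deposited limits (counting error only) and no point where no transcript was assembled. Mafa and Fibin were lowest in growth, and Hspb3 has no point there; H2afx and Haspin were highest in growth.

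Of 8 histone genes, 3 had a region. H2afx, the H2A.X variant phosphorylated at DNA breaks (chr9:44142678-44144242), was at 153 ± 3.71, 43.1 ± 1.51, 15.8 ± 1.28 and 10.4 ± 0.779 RPKM and was called lower at the first and second steps and at 168 h against growth. H1f0, the linker histone of cells that have stopped dividing, was at 78.4, 244, 130.0 and 89.5 RPKM, called higher at 60 h only, with no overlap of intervals between 60 h and any other time. Hist1h1c was assembled only at 120 h and 168 h, at 221 and 198 RPKM.

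All 3 C/EBP genes had a region. Cebpb (chr2:167514404-167515942) was at 12.5, 25.5, 19.3 and 50.6 ± 1.73 RPKM and was called higher from 120 h to 168 h and at 168 h against growth. Cebpa was at 14.5 ± 0.888 in growth and 3.98, 3.91 and 5.31 later, and was called lower at 60 h and at 168 h against growth. Cebpd ranged from 2.73 to 5.23 RPKM with no call.

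Of 9 AP-1 and immediate early genes, 5 had a region, 6 regions in all. Rhob, a small GTPase induced by growth factors and stress, was at 87.3 ± 2.29, 226 ± 2.83, 159 ± 3.33 and 166 ± 2.54 RPKM and was called higher at 60 h. Both regions of Ier5l were called lower at 60 h, the longer from 23.3 to 6.41 RPKM and the shorter from 63.0 to 14.7, and neither was assembled at 168 h. Ier2, Ier5 and Jund had no call.

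Of 26 Sox, Fox and Pou genes, 7 had a region and none was called higher in any of the 4 comparisons, while 4 were called lower at 168 h against growth, where 7.8% of all regions were higher and 27.1% lower. Sox11 (chr12:28019505-28027524) was at 5.72 ± 0.316, 7.10 ± 0.271, 2.45 ± 0.223 and 1.16 ± 0.115 RPKM. Foxs1 was at 33.1, 15.9, 11.9 and 13.8 RPKM, Foxl1 at 3.15, 1.39, 0.245 and 0.363, and Foxc2 at 12.1 in growth and 1.89 and 2.34 at 120 h and 168 h, with no transcript at 60 h. Of 7 frizzled receptors of Wnt ligands, 4 had a region. Fzd9 alone was called, from 0.627 ± 0.198 RPKM in growth to 3.7 ± 0.37, 1.97 ± 0.379 and 3.01 ± 0.350, and Fzd2, the highest, ranged from 18.4 to 30.1. All 4 heat shock 70 genes had a region and 1 was called, Hspa1b, lower at 60 h (5.44 to 1.67 RPKM). The others could not be called in every comparison. Hspa1a was not assembled at 60 h and Hspa1l not at 168 h. Hspa2 was assembled only at 60 h and 120 h, at 8.7 and 10.6 RPKM. Hspa1b shares 62.8% of its words with other transcripts, Hspa1a 84.7% and Hspa1l 76.4%.

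Pseudogene regions supplied most of the high levels. Of 98 regions of at least 100 RPKM in a library, 69 were pseudogenes. Of the 513 pseudogene regions, 503 shared a word with a multi-exon coding gene. Over 362 pairs assembled in both libraries, r of the log2 ratios of region and gene at 60 h against growth was 0.62, and over 363 pairs at 168 h against growth it was 0.71. Between the later times it was lower, 0.32 at 120 h against 60 h (362 pairs) and 0.27 at 168 h against 120 h (370 pairs). At 168 h against growth it was 0.68 in the 113 pairs with at least 50% of words shared and 0.73 in the other 250. Of 102 pseudogene regions called lower at 168 h against growth in these pairs, 70 had a gene called lower, and of 15 called higher, 11 had a gene called higher. Among all multi-exon loci, 18.5% were called lower and 10.9% higher in this comparison. The share over the genes of all 363 pairs is not given here. Region and gene come from the same libraries.

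**Figure D4:**
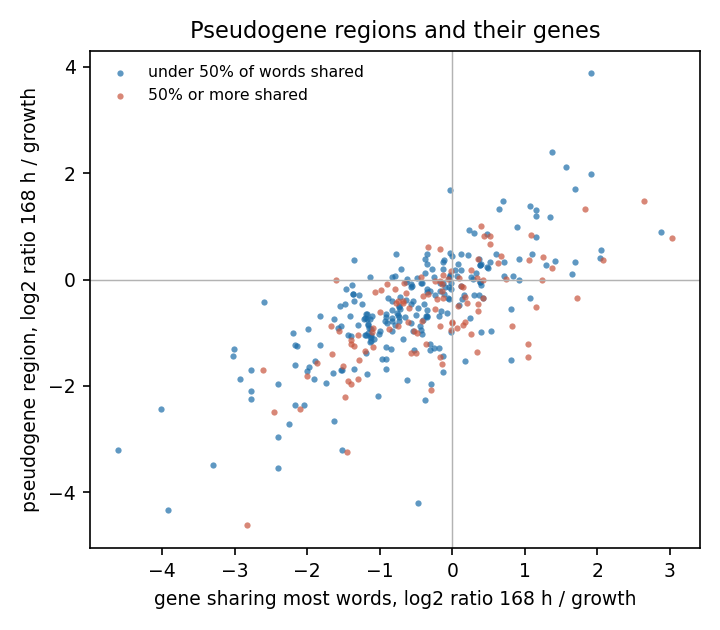
Log2 ratio (RPKM + 1) of 168 h over growth for pseudogene regions (vertical) and for the multi-exon coding gene that shares the most words of 50 bases with each (horizontal), without regions on chromosome 18. Points of both colours, under and over 50% of words shared, lie along the same diagonal.

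The largest ratio of all was that of Mylf-ps (chr12:102459922-102460811), whose window is printed above beside Myl1, an alkali light chain of fast myosin. The region was at 2.62 ± 0.643 RPKM in growth and 1078 ± 10, 2093 ± 19.6 and 2563 ± 16.2 at 60 h, 120 h and 168 h, a log2 ratio of 8.22 at the first comparison. The Myl1 locus was not assembled in growth and was at 157, 489 and 485 RPKM. Of the region, 47.3% lay in the annotated pseudogene, and 65.1% of the words there occur in Myl1.

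Of the pseudogene regions named for their falls, 4 are given beside the gene with which each shares most words. Gm48455 (chr13:12771963-12772628), a copy of the ribonucleotide reductase subunit Rrm2, was at 58.6, 8.73, 7.69 and 1.95 RPKM in time order, and Rrm2 at 353, 34.8, 46.8 and 22.4. Gm9430 (chrX:8239665-8240441), a copy of the replication licensing factor Cdc6, was at 10.8, 1.17, 0.368 and 0.0587 RPKM, and Cdc6 at 17.7, 5.74, 3.78 and 0.903. Gm3320, which shares 87.4% of its words with other transcripts and most with the cell cycle transcription factor Mybl2, was at 11.1, 1.03, 0.506 and 0.0660 RPKM, and Mybl2 at 29.4, 4.32 and 2.10, with no Mybl2 locus assembled at 168 h. Gm6166, which shares most with the fatty acid binding protein Fabp5, was at 101, 18.1, 16.4 and 3.15 RPKM, beside 11.5, 2.15, 5.89 and 0.766 for Fabp5. In each of these, region and gene were highest in growth.

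In the other direction, Gm5276 (chr3:57166519-57167184), which shares 8.43% of its words with the glycolytic enzyme Aldoa and fewer with any other gene, was at 7.08, 18.4, 84.3 and 118 RPKM and Aldoa at 541, 1277, 2263 and 2042. Under 20% of the Gm5276 region was assembled before 168 h. Gm8276, which shares most with the poly(A)-binding protein Pabpc1, was at 114, 3.33, 47.3 and 5.23 RPKM, and Pabpc1 at 281, 164, 254 and 202. Both went down, up and down, over a wider range in the region. At 60 h and 168 h 8.69% and 18.6% of that region were assembled, and 100.0% and 93.3% in growth and at 120 h. A pair of copies of the RNA-binding protein gene Ybx1 also moved apart: Ybx1-ps2 was at 63.9, 71.8, 6.48 and 31.8 RPKM, lowest at 120 h, and CT009755.1 at 5.71, 3.74, 67.2 and 5.46, highest at 120 h. Ybx1 itself was at 180.1, 181, 335 and 178. At 120 h, 22% of the Ybx1-ps2 region and 100.0% of the CT009755.1 region were assembled. Taking the transcript of largest overlap as the value turned the step of Ybx1-ps2 from 120 h to 168 h from a log2 ratio of 2.13 to -0.76.

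Other pseudogene regions were high and assembled at every time. Gm13050 was at 496, 688, 896 and 1140.0 RPKM, and the elongation factor Eef2, with which it shares 14.6% of its words, at 1139, 1568, 2005 and 2529. Gm13050 and Eef2 had the same order of times, and Gm13050 was called higher at 168 h against growth. Gm6180 was at 779 ± 9.88, 294 ± 4.67, 186 ± 5.21 and 123 ± 3.17 RPKM, and the actin-binding cofilin gene Cfl1, its closest by words, at 349.6, 152, 259 and 112. In all, 22 pseudogene regions shared most with ribosomal protein genes, 16 of them at 100 RPKM or more in a library and 11 not assembled in at least 1.

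Some regions in exons of coding genes carried a copy of another gene. A region in the 3' untranslated region of Wdr89 (chr12:76731910-76732523) was not assembled in growth and was at 1385, 1859 and 1618 RPKM later, while the spliced Wdr89 locus was between 2.01 and 5.10 RPKM in all libraries. Of its words, 53.6% occur in other transcripts, most in the ribosomal gene Rplp2. The highest region of all, on chromosome 6 (chr6:3150765-3151670), could not be placed on the annotation. It was at 3536, 2212, 1133 and 1249 RPKM in time order.

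Some regions had no transcript in 1 library and high values in the others. Of the 1987 regions, 1715 were assembled in all libraries, 177 in 3, 67 in 2 and 28 in 1. The growth library lacked 9 regions that had at least 10 RPKM in each of the other 3, the 60 h library 11, the 120 h library 9 and the 168 h library 7. Among them were Pcbp1, an abundant RNA-binding protein (313, 173 and 229.7 RPKM in growth and at 120 h and 168 h, and not assembled at 60 h), and Jund (62.0, 99.7 and 64.5 RPKM, and not assembled at 168 h). Rps16-ps2, the highest region seen in 1 library, was at 957 RPKM in growth and not assembled later. It shares 100.0% of its words with other transcripts. Others were assembled in part. Ubqln2, a ubiquitin receptor, was at 21.7, 10.8, 0.193 and 11.9 RPKM with 11.4% of the region assembled at 120 h, and Hexim1, an inhibitor of transcription elongation, at 18.7, 12.3, 10.8 and 0.402 with 23.5% assembled at 168 h. Neither is called at those times where at least 50% of a region must be assembled in both libraries.

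Noncoding genes held 50 regions, of which 6 of 42 were called higher at 168 h against growth (14.3%, beside 7.8% of all regions) and 10 lower (23.8%, beside 27.1%). The 6 called higher include 3 regions of Neat1, which are pieces of 1 RNA. Apart from Malat1, each of the 6 had a value of at least 2 RPKM only at 168 h. Malat1, a nuclear RNA that ends without a poly(A) tail of the usual kind (chr19:5795917-5802737), was at 63.9 ± 1.15 RPKM in growth, 143 ± 1.32 at 60 h and 145 ± 1.39 at 168 h, and was not assembled at 120 h. It was called higher in both comparisons with growth. Neat1, the RNA on which paraspeckles form, had 3 regions, on the same chromosome. They were at 0.692, 0.927 and 0.926 RPKM in growth, at 0.929, 1.06 and 0.134 at 60 h, where 1.8% of the third was assembled, at 0.947, 1.16 and 0.953 at 120 h, and at 3.73 ± 0.324, 4.17 ± 0.471 and 3.82 ± 0.289 at 168 h. All 3 were called higher from 120 h to 168 h, with log2 ratios of 1.28, 1.26 and 1.30, and no interval at 168 h overlapped one of an earlier time. Their values reached the 2 RPKM limit for members only at 168 h, so these calls are tied to the selection. The regions are pieces of 1 RNA and are not independent. Both Xist regions were between 1.93 and 3.68 RPKM with no call. Atcayos, chosen after its values were seen, had 2 regions near Nmrk2, a muscle kinase of nicotinamide riboside. The nearer was at 0.0364 ± 0.0729, 0.809 ± 0.239, 0.919 ± 0.375 and 3.42 ± 0.755 RPKM, and the farther was not assembled in growth and was at 1.73, 3.01 and 6.91 later. Nmrk2 was not assembled in growth and was at 37.9, 78.3 and 69.9. Nmrk2 is given only as the nearest assembled locus, 434 and 5677 bases away, and not as the partner of this antisense gene. The protocol marks no strand, so an antisense RNA and its partner cannot be told apart.

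The regions that hold microRNA hairpins were low. The one with Mir351 and Mir503 (chrX:50406294-50407414), in an annotated intron, was at 0.287 ± 0.188 RPKM in growth, 2.29 ± 0.412 at 60 h, 0.838 ± 0.349 at 120 h and 0.203 ± 0.129 at 168 h, and was called higher at 60 h. The interval at 60 h overlapped none of the others. Only at 60 h did this region reach the 2 RPKM limit for members, so its peak is tied to the selection. The region with Mir24-2 and Mir3074-2 (chr8:86732727-86733988), in exons of Gm26532, was at 5.56 ± 0.786, 2.18 ± 0.232, 3.82 ± 0.703 and 3.43 ± 0.498 RPKM and was called lower at 60 h. The region with Mirlet7b and Mirlet7c-2 (chr15:85536413-85537931), in Lncppara, was at 1.85 ± 0.199, 3.44 ± 0.433, 2.02 ± 0.261 and 2.61 ± 0.193 RPKM, highest at 60 h, with no call. The region with Mir296 (chr2:174091930-174092607) was at 4.09 ± 0.920, 3.76 ± 0.678, 3.91 ± 0.971 and 2.76 ± 0.609 RPKM with no call. These values are of the long polyadenylated RNA around the hairpin, not of the mature microRNA.

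**Figure D5:**
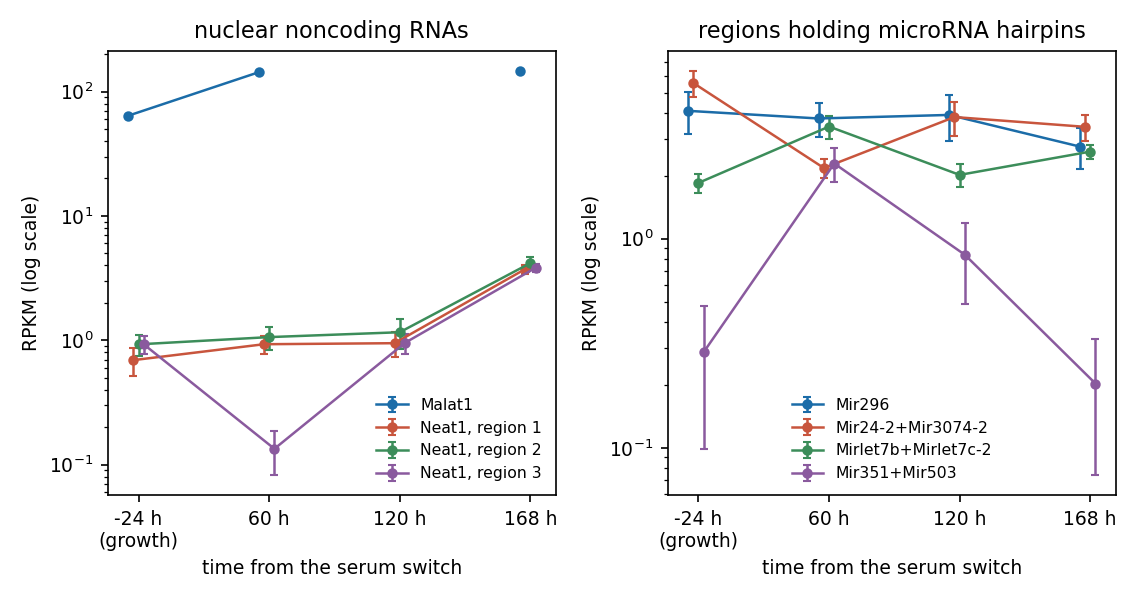
RPKM (log axis) at the 4 time points, 1 library each, of Malat1 and the 3 Neat1 regions (left) and of 4 regions that hold microRNA hairpins (right), with bars to the deposited limits. The Neat1 regions are highest at 168 h (3.73 to 4.17), the Mir351 and Mir503 region is highest at 60 h (2.29), and Malat1 has no point at 120 h. The Neat1 regions reached the 2 RPKM limit for members only at 168 h, and the Mir351 and Mir503 region only at 60 h.

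Regions outside annotated exons were few. Between genes, 15 of 110 were called higher at 60 h (13.6%, beside 6.52% of all regions) and 12 lower (10.9%, beside 12.4%). At 168 h against growth 11 of 108 were higher (10.2%, beside 7.8%) and 23 lower (21.3%, beside 27.1%). In introns, 6 of 70 were higher and 12 lower at 60 h (8.57% and 17.1%). At 168 h against growth 6 of 72 intron regions were higher (8.33%, beside 7.8%) and 28 lower (38.9%, beside 27.1%). An intron region near Tarbp1 (chr8:128999559-129000720) was at 86.0 ± 3.22, 15.0 ± 1.03, 8.63 ± 1.10 and 1.41 ± 0.333 RPKM, the largest fall of all called regions at 168 h against growth (log2 ratio -5.17), while the Tarbp1 locus was between 0.699 and 2.42 RPKM. A region between genes on chromosome 4 (chr4:135614331-135614907), 7843 bases from the Rpl11 locus, was at 9.54 ± 1.52 RPKM in growth and 0.431, 0.283 and 0.237 later. An intron region near Josd2 (chr7:51729134-51731327) was at 0.0959, 7.98, 3.91 and 2.99 RPKM, highest at 60 h.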

How the data were processed

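The authors deposited, for each of 4 C2C12 libraries, assembled transcripts with exon positions and RPKM, a level scaled to length and library size, with confidence limits. Per the submitters' processing notes the tools were TopHat 1.0.13 and Cufflinks 0.8.0. No source used here gives the genome build. Positions are those of the files, counted from 1. The deposited RPKM values were used unchanged. Library size was computed from the limits, which lie 2 square roots of the fragment count from a value.

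Regions, their values and the size rule are described with the results. Multi-exon loci (18154 in all, transcripts whose spans overlap on 1 strand, summed RPKM) gave the background. Splice sites were matched to GENCODE M21 by runs of intron and exon lengths, which identified 112261 sites. A region took the annotation at equal distance from the 3 nearest identified sites on each side, with at least 25% of it in exons of its gene. Of 4886 held-out splice sites that could be placed, 4885 were placed right. The check placed single sites, not whole regions. Shared words are the percent of a region's 50-base words found, on either strand, in transcripts of other genes. Python 3.11.15 and numpy 2.4.6 were used. Only the size rule was tested on simulated data, as fragment counts for 60 h against growth. The other steps were not tested in this way.

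A single library per time point allowed no test. Regions were named by rank: the 10 highest, the 10 longest, the 10 highest far from genes, the 5 highest seen in 1 library, and among those of at least 5 RPKM the 10 largest calls each way at 60 h against growth and 5 each way in the other comparisons, plus members of 7 gene lists. Some that this rule takes are not described. The members, lists and rules were chosen with earlier results of these data known. The nearest locus and the gene sharing most words are the values set beside a region. Alternatives covered the pseudocount, the fold, unassembled regions, the region value, scaling, the limits on level, length and distance, and, chosen after seeing the data, limits on shared words and on exon overlap.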

Additional observations from a re-analysis of the deposited data

How the results depend on the processing

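No paired analysis was possible because each time point has 1 library. For the same reason no library could be left out of a group. Values below follow the order of higher and lower calls where 2 are given, and the main counts were 117 and 222 at 60 h against growth, 22 and 75 at 120 h against 60 h, 28 and 36 at 168 h against 120 h, and 141 and 490 at 168 h against growth. The cause of each change was not tested, except that stricter limits leave fewer regions.

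The number of regions was 3305 at a limit of 1 RPKM, 1059 at 5 RPKM and 1014 at 1000 bases. On the 3' side it was 1860, 347 and 570, on the 5' side 324, 70 and 66, and 378 far regions had 1000 bases. A pseudocount of 0.1 gave 199 and 334 at 60 h, 39 and 238 at 120 h against 60 h, and 68 and 79 at 168 h against 120 h. As shares these were 11.1% and 18.6% at 60 h, beside 8.72% and 16.4% of loci at that pseudocount. At 120 h against 60 h they were 2.14% and 13.1%, beside 7.86% and 2.75% of loci. At 168 h against 120 h they were 3.69% and 4.29%, beside 2.66% and 7.57%. The 4-fold rule gave 21 and 26, 6 and 4, 3 and 8, and 26 and 101 in the 4 comparisons. At 60 h these were 1.17% and 1.45%, beside 1.97% and 1.61% of loci at 4-fold. At 120 h against 60 h they were 0.329% and 0.22%, beside 0.432% and 0.112%. At 168 h against 120 h they were 0.163% and 0.434%, beside 0.121% and 0.371%. At 168 h against growth they were 1.44% and 5.59%, beside 3.21% and 4.12%. Counting unassembled regions as 0 gave 196 higher at 60 h, 97 and 126 at 120 h against 60 h, 64 and 85 at 168 h against 120 h, and 225 higher at 168 h against growth. The transcript of largest overlap gave 47 higher at 120 h against 60 h, and regions assembled over at least 50% in both libraries gave 16 and 20 at 168 h against 120 h. Regions over 5 kb away gave 34 and 111, 14 and 31, 7 higher, and 45 and 228. A limit of 5 RPKM gave 73 higher, 46 lower, 13 higher, and 78 and 305, and one of 1000 bases gave 72 and 118, 4 and 35, 17 and 17, and 85 and 254. Regions with fewer than 10% of words shared gave 72 and 113, 5 and 41, 18 and 9, and 86 and 250, and those with at least 50% in exons of their gene gave 14 higher at 120 h against 60 h. Limits on regions also changed how many were compared, so these counts are not shares. At 60 h against growth, 1794 were compared by the main rule and 773 over 5 kb away. A limit of 5 RPKM left 954, one of 1000 bases 936, and one of 10% of words shared 936.

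The median log2 ratio went from -0.21 to -0.05 with rescaling at 60 h, from -0.05 to 0.01 at 168 h against 120 h, a change of sign, and from -0.44 to -0.26 at 168 h against growth, where a pseudocount of 0.1 gave -0.56. Of 110 called values of named regions, 110 kept their call at a pseudocount of 0.1, 108 under rescaling, 102 with the transcript of largest overlap, 78 where at least 50% had to be assembled in both, and 66 at 4-fold. With the transcript of largest overlap, Ybx1-ps2 and Pdxp turned from higher to lower at 168 h against 120 h, to log2 ratios of -0.76 and -0.27. Depth sets the width of the intervals. The number of unassembled regions was 113 in growth, 103 at 60 h, 85 at 120 h and 94 at 168 h. The part of depth in these numbers was not tested.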
